A study of Mus musculus with 12 samples.

Results

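Macrophages direct arginine and citrate into antimicrobial products, and 7 genes of these routes were examined: Nos2, Arg1, Arg2, Irg1 (the older name of Acod1), Ass1, Slc7a2 and Gch1. They were chosen by symbol for their roles, with earlier results of these data known, and all 7 were found among the 23997 genes of the deposited tables. RNA-seq was performed on BMDMs, macrophages grown from bone marrow, of WT and Pim1-/- C57BL/6 male mice aged 8 to 10 weeks, in 12 libraries with 3 in each of 4 groups: untreated WT, untreated Pim1-/-, WT after LPS and Pim1-/- after LPS. LPS, the bacterial ligand of TLR4, was given at 100 ng/ml for 4 h, and all cells had been grown for 7 d in human M-CSF at 10 ng/ml. The Pim1-/- mice carried a CRISPR deletion of exons I–V in every cell. How many founder lines they came from, and whether the libraries of a group came from separate mice or cultures, is not stated. The p-values below therefore measure the spread between these libraries, which may be technical.

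In a macrophage, Slc7a2 carries arginine into the cell and Nos2, the inducible nitric oxide synthase, turns it into nitric oxide and citrulline. Nos2 needs tetrahydrobiopterin, whose synthesis begins with Gch1, while Ass1 starts the return of citrulline to arginine, and the arginases Arg1 and Arg2 draw on the same arginine to make ornithine and urea. Irg1 works in mitochondria, where it makes itaconate from the citrate cycle intermediate cis-aconitate, and itaconate in turn inhibits succinate dehydrogenase. Nos2 and Irg1 are classical products of LPS-treated mouse macrophages, and Arg1 is a classical product of macrophages treated with IL-4.

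Irg1 and Gch1 are shown first by the bases before their start sites, because both were induced by LPS and both were lower in Pim1-/- cells after LPS. The RefSeq promoter table for GRCm38.p6 held 3 of the 7 genes, Irg1 (as Acod1), Gch1 and Ass1. Motifs were searched on both strands in the 250 bases before the RefSeq start, and matches are in capitals.
Irg1, chr14:103046762-103046976, + strand: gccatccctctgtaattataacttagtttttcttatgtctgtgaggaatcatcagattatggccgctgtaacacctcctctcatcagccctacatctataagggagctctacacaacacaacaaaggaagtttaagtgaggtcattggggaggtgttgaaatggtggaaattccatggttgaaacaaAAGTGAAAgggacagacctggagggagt
Gch1, chr14:47189414-47189663, − strand: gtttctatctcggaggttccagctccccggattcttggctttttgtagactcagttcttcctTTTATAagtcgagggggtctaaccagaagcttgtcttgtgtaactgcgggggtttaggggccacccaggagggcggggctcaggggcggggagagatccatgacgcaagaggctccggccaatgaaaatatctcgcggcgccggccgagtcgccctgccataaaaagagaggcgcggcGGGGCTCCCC
The last 35 of the 250 bases of Irg1 lie inside the gene in GENCODE M21 and are not printed. The capitals in Irg1 mark an IRF core (AANNGAAA) from 63 to 56 bases before the RefSeq start, a motif held by 21.3% of all 32851 windows of this length. A TATA box (TATAAA, in 12.4% of windows) lay from 28 to 23 bases before that start, in the stretch not printed. The capitals in Gch1 mark a TATA box on the opposite strand, 188 to 183 bases before the start, and the NF-kB consensus at its last 10 bases, a motif held by 3.90% of windows. The 250 bases of Ass1 held none of the motifs searched, which also included the ISRE core GAAANNGAAA (2.98% of windows), whose matches also hold the IRF core, the GAS core TTCNNNGAA (7.02%), the AP-1 motif TGANTCA (6.75%) and the C/EBP core TTGCNNAA (9.56%). The windows differed in base composition, with a GC content of 44.4% and 2 CG dinucleotides in Irg1, 59.2% and 17 in Gch1 and 75.6% and 23 in Ass1, where the medians over all windows were 52.4% and 6. A match describes letters and is no evidence of binding.

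The values are read as FPKM, fragments per kilobase of transcript on a scale set per library, so levels of different genes can be compared. From the steps between the lowest values, 1 fragment on 1 kb of transcript was estimated to be worth 0.0219 to 0.0265 FPKM in untreated libraries and 0.0311 to 0.0476 FPKM after LPS. Per library, FPKM summed to between 452511 and 489710 in untreated cells, between 837585 and 849323 in WT cells after LPS and between 713307 and 743912 in Pim1-/- cells after LPS. Differences were tested on log2(FPKM + 1), which understates the change of low genes, with limma over the 10581 genes that reached 1 FPKM in at least 3 libraries. A gene was called where it differed over 2-fold with p under 0.05 and an FDR, the p adjusted by Benjamini-Hochberg, under 0.1. Counts that use an FDR under 0.05 and no fold threshold are given beside these calls. Of the 7 genes, 6 passed the filter and Arg1 did not. Pim1 itself was at 22.9 ± 1.80 and 8.73 ± 0.752 FPKM in untreated WT and Pim1-/- cells and at 645 ± 17.8 and 219 ± 15.6 FPKM after LPS (SD, n = 3 each), or 38.1% and 33.9% of WT. These values cover the whole gene and not the deleted exons alone, and exons of the antisense gene Gm26885 overlap Pim1 on the other strand. What the values left in Pim1-/- cells come from was not tested.

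LPS raised Nos2, Irg1, Slc7a2, Gch1 and Ass1 in both genotypes, and all 5 were called. Arg2 was called higher after LPS in Pim1-/- cells and stayed just under 2-fold on the log2(FPKM + 1) scale in WT cells, while Arg1 stayed at the level of single fragments throughout. Of the 6 genes 5 were called higher in WT cells, where 20.1% of all genes tested were called higher and 14.7% lower, and 6 in Pim1-/- cells, where 14.6% were called higher and 10.4% lower. Nothing is read from these counts, because all but Gch1 reached 1 FPKM in 3 libraries only through the LPS-treated groups and were too low without treatment to be called lower.

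**Figure D1:**
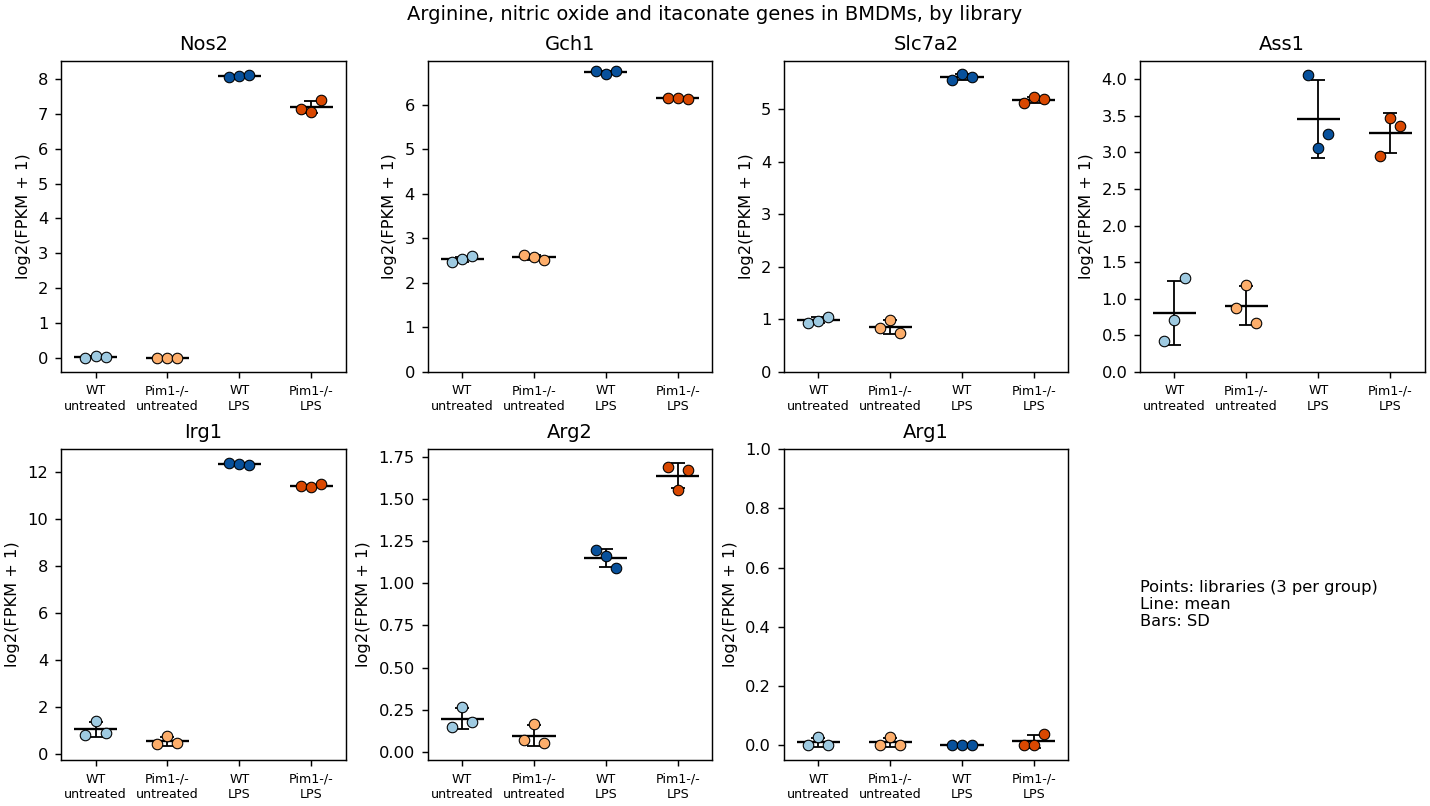
Level of each of the 7 genes in every library, as log2(FPKM + 1) on separate vertical axes, with the groups on the horizontal axis, 3 points per group, the mean as a line and the SD as bars. Every LPS-treated library lies above every untreated library except for Arg1, and after LPS the Pim1-/- points lie below the WT points for Nos2, Gch1, Slc7a2 and Irg1, above them for Arg2 and among them for Ass1.

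Slc7a2, the inducible cationic amino acid transporter (chromosome 8 of GRCm38, 40862396 to 40922308, + strand), was at 0.907, 0.956 and 1.06 FPKM in the untreated WT libraries and at 0.789, 0.982 and 0.665 FPKM in the untreated Pim1-/- libraries. After LPS it was at 46.1, 49.8 and 47.9 FPKM in WT cells and at 33.8, 36.6 and 35.4 FPKM in Pim1-/- cells. The genotypes overlapped without treatment, whereas after LPS each Pim1-/- library was below each WT library. The group means rose 49.3-fold in WT and 43.4-fold in Pim1-/- cells, and the Pim1-/- mean after LPS was 73.5% of the WT mean, 35.3 ± 1.42 against 48.0 ± 1.81 FPKM (SD, n = 3). This genotype difference had a log2 value of −0.43 (SE, the standard error, 0.06, adjusted p = 1.28e-05, limma). In untreated cells it was −0.13 (adjusted p = 0.0803, limma), and 0.0483 with the replicate number as a block. An annotated non-coding RNA, Gm26584, overlaps Slc7a2 on the other strand, the libraries were stranded, and whether the counting used strand is not given in the sources used here.

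Nos2 (chromosome 11, 78920787 to 78960254, + strand) was the gene closest to 0 without treatment among those induced. It was at 0, 0.0261 and 0.0120 FPKM in untreated WT libraries, which corresponds to at most 4.2 estimated fragments, and was listed at 0 in all untreated Pim1-/- libraries. After LPS it reached 269, 270.1 and 276 FPKM in WT cells and 141, 132 and 167 FPKM in Pim1-/- cells. The WT libraries differed little and all lay above the Pim1-/- libraries, among which the third was highest. The Pim1-/- mean was 54.0% of WT, 147 ± 18.4 against 272 ± 3.96 FPKM (SD, n = 3), a log2 fold change of −0.89 with a 95% confidence interval of −1.03 to −0.75 (adjusted p = 6.19e-09, limma). No fold is given for its induction, since one group was listed at 0. On the log2(FPKM + 1) scale LPS raised Nos2 by 8.07 in WT and 7.20 in Pim1-/- cells, which ranked 25 and 42 among the 10581 genes.

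Gch1, GTP cyclohydrolase I (chromosome 14, 47153895 to 47189413, − strand), was the only one of the 7 genes above 2 FPKM without treatment. The untreated values were 4.55, 4.77 and 5.02 FPKM in WT cells and 5.15, 5.00 and 4.72 FPKM in Pim1-/- cells, and the genotypes overlapped (log2 fold change 0.04, 95% confidence interval −0.05 to 0.14). After LPS the values were 107, 102 and 106 FPKM in WT cells and 69.8, 69.6 and 68.6 FPKM in Pim1-/- cells. The groups did not overlap, and the replicates were close, with means of 105 ± 2.72 and 69.4 ± 0.644 FPKM (SD, n = 3). Gch1 rose 21.9-fold in WT and 14-fold in Pim1-/- cells, and the Pim1-/- mean after LPS was 66.2% of WT, a log2 fold change of −0.59 (SE 0.04, adjusted p = 9.38e-09, limma).

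Ass1, argininosuccinate synthase (chromosome 2, 31470207 to 31520672, + strand), had the largest SE of the 6 tested genes, 0.24 for a difference between 2 groups on the log2(FPKM + 1) scale. Untreated values were 0.339, 0.628 and 1.42 FPKM in WT cells and 0.831, 1.27 and 0.582 FPKM in Pim1-/- cells. After LPS they were 15.7, 7.37 and 8.50 FPKM in WT cells and 6.72, 10.0 and 9.33 FPKM in Pim1-/- cells. After LPS the first WT library lay well above the other WT libraries, and the genotypes overlapped in both treatments. LPS raised the mean 13.2-fold in WT and 9.71-fold in Pim1-/- cells. The genotype difference after LPS was −0.20 on the log2 scale, with a 95% confidence interval of −0.71 to 0.32 (adjusted p = 0.462, limma), an interval wide enough to hold decreases as large as that of Gch1. Without the first WT library it was 0.11.

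Irg1 (chromosome 14, 103046977 to 103056573, + strand) was the most abundant of the 7 genes after LPS. It was at 0.773, 1.70 and 0.902 FPKM in untreated WT and at 0.345, 0.719 and 0.379 FPKM in untreated Pim1-/- libraries. After LPS it was at 5332, 5151 and 5123 FPKM in WT cells and at 2715, 2655 and 2856 FPKM in Pim1-/- libraries. In both treatments every Pim1-/- library lay below every WT library, although without treatment the highest Pim1-/- and the lowest WT value were close. The means after LPS, 5202 ± 113 and 2742 ± 103 FPKM (SD, n = 3), ranked 16 and 28 among the 23997 genes, and the rise on the log2(FPKM + 1) scale ranked 3 and 5 among those tested. Irg1 rose 4629.7-fold in WT and 5699-fold in Pim1-/- cells, folds that rest on 38.2 to 166.8 estimated fragments per untreated library. The Pim1-/- mean was 42.8% of WT without treatment (log2 fold change −0.50, SE 0.12, adjusted p = 0.00134, limma) and 52.7% after LPS (−0.92, SE 0.12, adjusted p = 3.94e-06, limma). With a pseudocount of 0.1 in place of 1 the untreated difference became −1.06 and was called.

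Arg2, the mitochondrial arginase (chromosome 12, 79130777 to 79156301, + strand), went the other way between genotypes after LPS. It was low throughout, at 0.108, 0.203 and 0.130 FPKM in untreated WT and at 0.0534, 0.122 and 0.0370 FPKM in untreated Pim1-/- libraries. After LPS it was at 1.29, 1.24 and 1.13 FPKM in WT cells and at 2.22, 1.94 and 2.18 FPKM in Pim1-/- libraries. Untreated genotypes overlapped, and after LPS every Pim1-/- library was above every WT library. The mean rose 8.30-fold in WT and 29.9-fold in Pim1-/- cells, the latter over 2 to 6 estimated fragments per untreated library. After LPS Pim1-/- was at 173% of WT, 2.11 ± 0.155 against 1.22 ± 0.0847 FPKM (SD, n = 3), which rest on 60.4 to 88 and 29.1 to 37.1 estimated fragments per library (log2 fold change 0.49, SE 0.06, adjusted p = 2.43e-06, limma). Exons of Vti1b and of the antisense gene Gm48780 overlap Arg2 on the other strand, which can add reads where strand is not used.

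Arg1, the cytosolic arginase (chromosome 10, 24915221 to 24927484, − strand), was listed at 0 in 9 of the 12 libraries. The other 3 values were 0.0193 FPKM in an untreated WT library, 0.0194 FPKM in an untreated Pim1-/- library and 0.0273 FPKM in a Pim1-/- library after LPS, about 1 estimated fragment each. No comparison of Arg1 was possible at this depth.

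Between the genotypes, then, LPS-treated Pim1-/- cells had less Nos2, Irg1, Gch1 and Slc7a2 and more Arg2 than WT cells, and no difference in Ass1 was detected. None of these differences reached 2-fold. After LPS 0 of the 6 genes were called with limma, 5 had an unadjusted p under 0.05, and with the fold threshold dropped and an FDR under 0.05, 4 were lower and 1 higher. Over all genes tested 5.15% were called lower and 3.51% higher, and without the fold threshold 41.7% were lower and 35.7% higher, so a count of 4 lower and 1 higher among 6 is not far from the background. The sizes lay toward the edge for some of the genes, since 6.38% of all genes tested had a log2 fold change at or below that of Irg1, 7.01% at or below that of Nos2, 15.2% at or below that of Gch1, 22.2% at or below that of Slc7a2, and 86.4% at or below that of Arg2. The median log2 fold change of the 6 was −0.51, where that of all genes tested was −0.03.

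In untreated cells 0 of the 6 genes were called with limma and 1, Irg1, had an unadjusted p under 0.05, as it did an FDR under 0.05 (1 lower, 0 higher). Over all genes 3.37% were called lower and 4.4% higher, and 42% were lower and 32.7% higher without the fold threshold. The median of the 6 was −0.06, where that of all genes tested was −0.05. Nos2 and Arg2 are too low in untreated cells for a genotype difference to be read.

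The response to LPS, the rise from untreated to treated cells compared between genotypes, was smaller in Pim1-/- cells for Gch1, by 0.63 on the log2 scale (adjusted p = 5.38e-07, limma). For Nos2, at or near 0 without treatment, the difference in response (−0.87) only restates the difference after LPS (−0.89) through the pseudocount. The same holds in large part for Arg2, with 0.59 and 0.49. For Irg1 the difference was −0.42 (adjusted p = 0.041, limma) with a pseudocount of 1 but 0.13 with 0.1 (adjusted p = 0.744, limma), and −0.16 with libraries scaled to equal FPKM sums (adjusted p = 0.464, limma), so its direction was not settled. Leaving out 1 library at a time gave adjusted p-values (limma) of 0.000268 to 0.116 for Irg1, the lowest without the second untreated WT library. For Slc7a2 it was −0.31 (adjusted p = 0.00706, limma), and −0.06 with quantile normalization (adjusted p = 0.572, limma). For Ass1 it was −0.30 with a 95% confidence interval of −1.03 to 0.42. None of the 6 was called with limma, 5 had an unadjusted p under 0.05, and without the fold threshold 4 were lower and 1 higher, where over all genes 4.43% and 2.24% were called lower and higher and 33.3% and 29.6% were so without the fold threshold. With a pseudocount of 0.1 Arg2 was called, at 1.29.

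**Figure D2:**
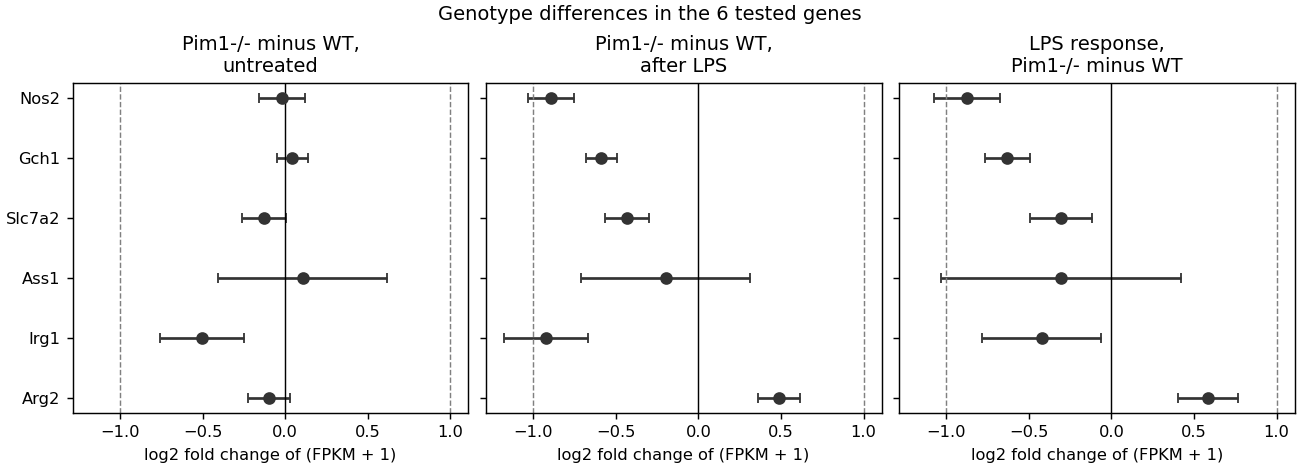
Differences between genotypes for the 6 tested genes on the log2(FPKM + 1) scale, with 95% confidence intervals from limma as bars and dashed lines at 2-fold. No point lies beyond 2-fold, the intervals after LPS exclude 0 for Nos2, Gch1, Slc7a2, Irg1 and Arg2, and that of Ass1 spans it in all 3 panels.

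The genotype differences after LPS kept their direction and an FDR under 0.05 for Nos2, Gch1, Slc7a2, Irg1 and Arg2 under median-ratio scaling, quantile normalization and scaling to equal FPKM sums, the last chosen after the data were seen. Scaling to equal sums moved the median of all genes after LPS between genotypes from −0.03 to 0.12, and the differences to −0.69 for Nos2, −0.72 for Irg1, −0.38 for Gch1, −0.23 for Slc7a2 and 0.56 for Arg2. Its effect on the response to LPS was larger, with a shift of the median of all genes from 0.00 to −0.67 in WT and from −0.01 to −0.59 in Pim1-/- cells. The 6 genes remained higher after LPS in both genotypes under it.

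In order of level, untreated WT cells held Gch1 at 4.78 ± 0.238 FPKM, then Irg1, Slc7a2 and Ass1 at 1.12 ± 0.499, 0.974 ± 0.0774 and 0.797 ± 0.562 FPKM, whose ranges overlap, then Arg2 at 0.147 ± 0.0495 FPKM and Nos2 and Arg1 near 0 (SD, n = 3). In untreated Pim1-/- cells Gch1 led at 4.95 ± 0.218 FPKM, and Ass1, Slc7a2 and Irg1, at 0.896 ± 0.351, 0.812 ± 0.160 and 0.481 ± 0.206 FPKM, overlapped again. After LPS the order was Irg1, Nos2, Gch1, Slc7a2, Ass1, Arg2 and Arg1 in both genotypes, and the ranges of neighbours did not overlap in either.

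Other genes of the same routes were followed through 5 lists of 62 genes in all, of which 47 could be tested. LPS-treated Pim1-/- cells had 1 of the 47 called lower and 2 higher, and untreated ones 1 lower and 2 higher, close to the shares over all genes. After LPS 5 were called lower and 5 higher in WT, and 3 lower and 2 higher in Pim1-/- cells. These are 10.6% lower and 10.6% higher, against 14.7% and 20.1% of all genes tested, and 6.38% and 4.26%, against 10.4% and 14.6%. The directions depend on the scaling: with libraries scaled to equal sums 19 were lower and 0 higher in WT, and 13 lower and 0 higher in Pim1-/- cells.

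Among genes of arginine transport and metabolism, Slc7a7, the light chain of a transporter that exports arginine from cells, was lower in Pim1-/- cells in both treatments. It was at 6.59 ± 0.201 FPKM in WT cells and 2.04 ± 0.0224 FPKM in Pim1-/- cells without treatment and at 24.4 ± 1.53 and 4.84 ± 0.501 FPKM after LPS (SD, n = 3), log2 fold changes of −1.32 and −2.12 (adjusted p = 4.26e-11 and 1.93e-13, limma). Slc7a1, the constitutive arginine importer, was called higher in untreated Pim1-/- cells, at 3.91 ± 0.244 against 1.10 ± 0.00142 FPKM (log2 fold change 1.23, adjusted p = 1.87e-11, limma). After LPS Slc7a1 was at 7.64 ± 0.379 against 3.6 ± 0.160 FPKM, just under 2-fold on the log2(FPKM + 1) scale with 0.91. Slc7a2, Slc7a1 and Slc7a7 thus differed between genotypes in different directions after LPS. Aldh18a1, which makes the precursor of proline and ornithine from glutamate, was called higher in Pim1-/- than in WT cells after LPS. It was then at 3.56 ± 0.449 against 0.963 ± 0.121 FPKM (log2 fold change 1.21, adjusted p = 2.58e-10, limma). Without treatment Aldh18a1 was also higher in Pim1-/- cells, at 6.09 ± 0.0950 against 2.65 ± 0.0335 FPKM in WT cells. It was not called, being just under 2-fold on the log2(FPKM + 1) scale. Both levels were above those after LPS. Of the 10 tested genes of this list 1 was called lower and 1 called higher in each treatment, with medians of 0.41 and 0.27. Cps1 and Agmat were listed at 0 in all libraries.

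The polyamine list holds Odc1, the ornithine decarboxylase, with later enzymes and regulators of the route. In it 0 of 9 tested genes were called between genotypes in either treatment with limma. An unadjusted p under 0.05 was found for 9 in untreated cells and 8 after LPS, where 76.2% and 78.6% of all genes tested had one. Odc1 was at 15.1 ± 0.185 FPKM in untreated Pim1-/- against 7.10 ± 0.140 FPKM in untreated WT cells (SD, n = 3). This was just under 2-fold on the log2(FPKM + 1) scale, with 0.99. After LPS Odc1 was at 26.5 ± 0.648 against 22.1 ± 1.49 FPKM, with 0.25. Azin1, the antizyme inhibitor that protects ornithine decarboxylase, was the 1 gene of all 5 lists called for the difference in LPS response. It went from 23.7 ± 1.42 to 57.1 ± 2.55 FPKM in WT but from 45.2 ± 3.80 to 43.1 ± 3.57 FPKM in Pim1-/- cells (SD, n = 3), a difference of −1.30 (SE 0.10, adjusted p = 1.9e-08, limma). Sms, spermine synthase, was called higher after LPS in both genotypes, with 1.07 and 1.08, but was at 0.29 and 0.44 under scaling to equal sums. Paox, a polyamine oxidase, fell in both, from 23.3 ± 1.22 to 4.79 ± 0.966 FPKM in WT cells and from 15.9 ± 0.472 to 4.67 ± 0.0942 FPKM in Pim1-/- cells. The level of Sms went from 15.7 ± 0.331 to 34 ± 0.567 FPKM in WT cells.

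Of the nitric oxide synthases and their regulators, Nos1 and Nos3, the neuronal and endothelial enzymes, stayed at or under 0.0542 and 0.0508 FPKM in every library, Gucy1a3 was listed at 0, and Nos2 was the only synthase above 1 FPKM. None of the 4 tested genes was called between genotypes with limma. An unadjusted p under 0.05 was found for 4 in untreated cells and 3 after LPS, where 76.2% and 78.6% of all genes tested had one. Nostrin differed most after LPS, at 10.6 ± 1.72 FPKM in Pim1-/- against 5.40 ± 0.146 FPKM in WT cells (log2 fold change 0.85). With libraries scaled to equal sums it was called, at 1.00. Ddah2 breaks down methylated arginines that inhibit the nitric oxide synthases. It fell after LPS from 8.46 ± 0.682 to 3.12 ± 0.0606 FPKM in WT cells and from 11.7 ± 1.61 to 3.53 ± 0.251 FPKM in Pim1-/- cells (log2 fold changes −1.20 and −1.48). In the tetrahydrobiopterin list, Pts and Spr, which act after Gch1, were at 17.0 ± 0.663 and 7.84 ± 0.631 FPKM in WT cells and 18.7 ± 0.860 and 12.4 ± 0.682 FPKM in Pim1-/- cells after LPS, neither called, although Spr had a log2 fold change of 0.60 with an FDR under 0.05.

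The list from citrate to succinate surrounds the substrate of Irg1, and 0 of its 19 tested genes were called between genotypes with limma, with 11 at an unadjusted p under 0.05 in untreated cells and 17 after LPS, or 57.9% and 89.5%, where all genes tested gave 76.2% and 78.6%. The medians were 0.01 and 0.15. After LPS the log2 values ran from −0.90 for Slc25a1 to 0.57 for Clybl. Slc25a1 was at 34.3 ± 1.47 FPKM in Pim1-/- against 64.9 ± 3.68 FPKM in WT cells (SD, n = 3). Clybl was at 5.67 ± 0.713 against 3.49 ± 0.584 FPKM. At an FDR under 0.05 with no fold threshold 7 of the 19 were lower and 10 higher, where 41.7% and 35.7% of all genes tested were. Idh1, the cytosolic isocitrate dehydrogenase, was called lower after LPS in both genotypes, from 140 ± 7.50 to 43.1 ± 1.76 FPKM in WT cells and from 94.3 ± 3.39 to 33.6 ± 2.70 FPKM in Pim1-/- cells. The 4 subunits of succinate dehydrogenase, the enzyme that itaconate inhibits, lay between −0.10 (Sdhc) and 0.27 (Sdhb) after LPS on the log2 scale, with Sdha at −0.02 and Sdhd at 0.15. With libraries scaled to equal sums they were at 0.10, 0.47, 0.18 and 0.36, so the direction of Sdha and Sdhc depends on the scaling.

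**Figure D3:**
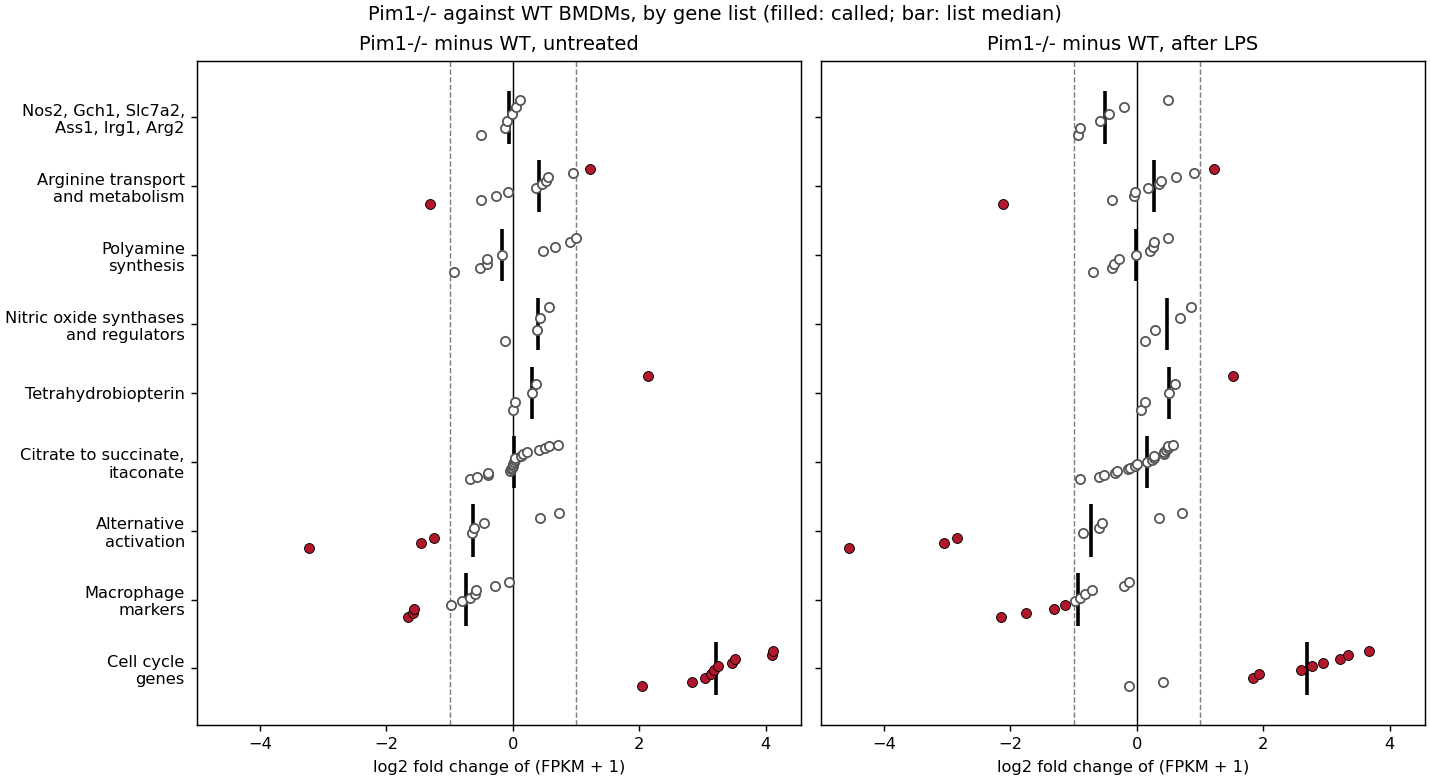
Log2 fold changes between genotypes, untreated on the left and after LPS on the right, for each tested gene of the lists on the vertical axis, with called genes filled, the list median as a bar and dashed lines at 2-fold. The 6 arginine, nitric oxide and itaconate genes hold no called gene, with medians of −0.06 and −0.51, and the cell cycle genes have the highest medians of the lists shown, 3.21 and 2.68.

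Because Arg1 marks alternative activation, 10 genes of that state were tallied, and 3 of the 8 that could be tested were called lower in Pim1-/- cells in each treatment, with 0 higher, where 3.37% and 5.15% of all genes tested were called lower. At an FDR under 0.05 and no fold threshold 6 were lower and 2 higher in each treatment. Il4ra, the receptor through which IL-4 acts, was at 25.6 ± 0.984 against 10.2 ± 0.572 FPKM without treatment and 113 ± 2.82 against 12.8 ± 0.554 FPKM after LPS in WT and Pim1-/- cells (log2 fold changes −1.25 and −3.05). Clec10a, a lectin, was at 38.1 ± 2.15 against 3.18 ± 0.192 FPKM and at 17.8 ± 0.457 against 1.61 ± 0.198 FPKM. Mrc1, the mannose receptor, was called lower without treatment (log2 fold change −1.46). The chemokine Ccl24 was called lower after LPS (−4.56). The LPS responses of Ccl24, Il4ra and Tgm2, a transglutaminase, were smaller in Pim1-/- cells, by 3.94, 1.80 and 1.02, although Tgm2 was under 2-fold with quantile normalization (−0.85). These 3 were called, where 4.43% of all genes tested were called lower. Without the fold threshold 3 of the 8 responses were lower and 3 higher, with a median of −0.05. Egr2, a transcription factor, had the largest value in the higher direction, 0.998, and was not called. Chil3, a chitinase-like protein also induced by IL-4, was higher in Pim1-/- cells in both treatments, without overlap. It was at 1.3 ± 0.262 against 2.78 ± 0.367 FPKM in WT and Pim1-/- cells without treatment and 2.09 ± 0.327 against 4.06 ± 0.536 FPKM after LPS. On the log2(FPKM + 1) scale, which understates the change of so low a gene, it was under 2-fold (0.72 and 0.71). The other gene of the 2 higher between genotypes was Tgm2 without treatment (0.43) and Egr2 after LPS (0.34). Retnla, like Arg1 a product of IL-4 treatment, was listed at 0 in all libraries.

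The genes with profiles most like those of each tested gene were found by the root mean square difference of log2(FPKM + 1), relative to untreated WT, over the 12 libraries. For Nos2 these were Oasl1, Ccl22 and Ccl12, at 0.27, 0.32 and 0.35. For Irg1 they were Ccl5, Il6 and Il1b, at 0.45, 0.58 and 0.61, and Gch1 was closest to Filip1l, Tpst1 and Setdb2, at 0.09, 0.11 and 0.13. Slc7a2 was closest to Casp4, Gnb4 and Cers6, at 0.13, 0.13 and 0.14, and Ass1 to Birc2, Parp11 and Armc8, at 0.32, 0.32 and 0.33. Arg2 was closest to Macc1, Ints12 and Phtf2, at 0.10, 0.11 and 0.11. A likeness in size of response does not extend to each group: Il6 was at 1278 FPKM in WT cells and 1358 FPKM in Pim1-/- cells after LPS, where Irg1 was lower in Pim1-/- cells. Il1b was at 8515 and 4436 FPKM, and Ccl12 at 506 and 182 FPKM. Ccl22 was nearly level, at 218 and 210 FPKM, where Nos2 was lower in Pim1-/- cells.

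**Figure D4:**
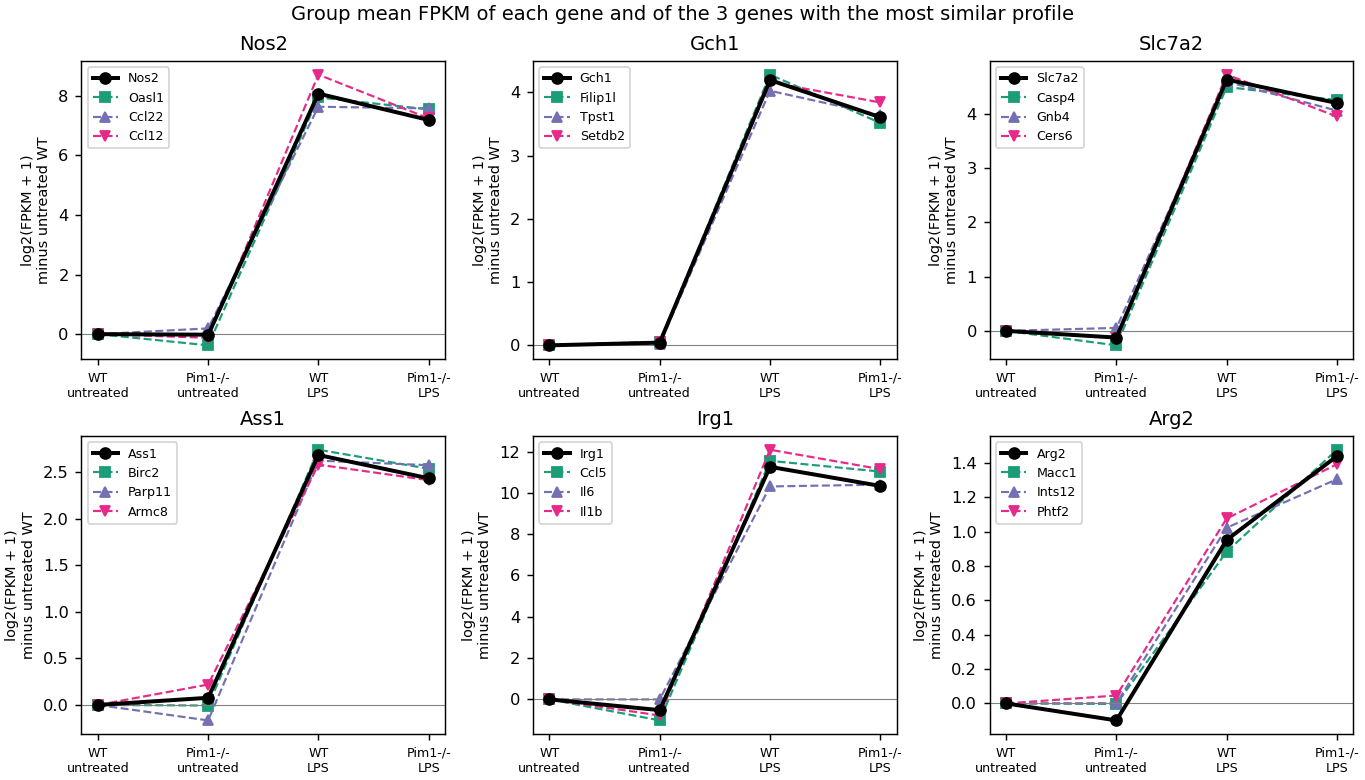
Group mean levels as log2(mean FPKM + 1) minus that of untreated WT, on the vertical axis, for each tested gene in black and the 3 genes nearest to it in colour, across the 4 groups. Arg2 and its 3 neighbours rise from WT to Pim1-/- cells after LPS. The lines of Gch1, Nos2 and Slc7a2 and of their neighbours fall there, that of Ccl22 only slightly.

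Markers of the cells moved with the genotype too. All 10 macrophage markers were detected in every group, and their summed level was 31617 to 32085 FPKM in WT cells and 16307 to 18149 FPKM in Pim1-/- libraries after LPS, and 28076 to 30124 and 14539 to 15434 FPKM without treatment. Lyz2 carried most of the sum, with means of 26785 FPKM in WT libraries and 13680 FPKM in Pim1-/- cells after LPS, whereas Cd14 and Cd68 differed less, at 1861 against 1699 FPKM and 1101 against 959 FPKM. The median log2 fold change of the list was −0.94 after LPS with 4 of 10 called lower and −0.74 without treatment with 3 called, against −0.51 and −0.06 for the 6 genes. Over all genes tested 5.15% and 3.37% were called lower. The 4 called after LPS were Fcgr1, at 306 against 68.5 FPKM in WT and Pim1-/- cells, Mertk, at 18.2 against 4.74 FPKM, Csf1r and Spi1. Csf1r was at 449 against 180 FPKM and Spi1 at 801 against 365 FPKM. All 10 cell cycle genes were called higher in untreated Pim1-/- cells, with sums of 358 to 363 against 24.1 to 29.9 FPKM. After LPS 8 of them were, with sums of 165 to 180.2 against 48.2 to 51.4 FPKM. Over all genes tested 4.4% and 3.51% were called higher. Mki67 was slightly lower in Pim1-/- cells after LPS, at 26.2 ± 0.173 against 28.6 ± 0.924 FPKM, and not called. Of the markers of other cells, 7 of 9 for neutrophils, 7 of 8 for dendritic cells, 7 of 8 for lymphocytes and 6 of 8 for stromal, mast and erythroid cells stayed under 1 FPKM in every library, and the highest value of any was 7.51 FPKM. Some of those above 1 FPKM were called lower in Pim1-/- cells: Cd4 at 0.432 ± 0.0264 against 4.96 ± 0.326 FPKM without treatment and 0.310 ± 0.0611 against 2.57 ± 0.368 FPKM after LPS, and Pdgfrb and S100a9 after LPS, at 2.16 ± 0.235 against 7.10 ± 0.382 FPKM and at 0.776 ± 0.119 against 3.07 ± 0.917 FPKM. S100a8, also a neutrophil marker, was not called and went the other way without treatment. Its level was 3.41 ± 0.494 FPKM in untreated Pim1-/- against 1.29 ± 0.375 FPKM in untreated WT cells. After LPS S100a8 was at 3.85 ± 1.51 against 3.81 ± 0.911 FPKM. The part of these marker differences in the values of Nos2, Irg1, Gch1, Slc7a2 and Arg2 was not tested. In bulk RNA, fewer cells that express a gene and less RNA per cell cannot be told apart.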

How the data were processed

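The RNA of 12 BMDM libraries was measured by RNA-seq, 3 in each of 4 groups. The authors trimmed the reads with cutadapt (1.18), mapped them with TopHat2 (2.0.13) and deposited Cuffdiff (2.2.1) values, read here as FPKM from the tool, the decimals and the column sums, because the columns name no unit. The build is mm10 per the labels, whereas the methods name rat rn5. The libraries were stranded (TruSeq Stranded mRNA). The gene annotation and whether the counting used strand were not given in the labels or methods.

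No further scaling was applied. The 10581 of 23997 genes that reached 1 FPKM in 3 libraries or more were fitted on log2(FPKM + 1) by limma (3.58.1, under R 4.3.3), which estimated the 4 group means and a mean-variance trend, and p-values were adjusted over all of them. The call thresholds follow those the methods give for the ontology analysis, applied in both directions. The 7 genes and all lists were chosen with earlier results of these data known. All 7 genes and Pim1 were named, together with genes of the 5 lists that were called between genotypes or for the difference in response, up to 4 per list called after LPS in both genotypes, and those at 0. Sdha, Sdhb, Sdhc, Sdhd, Slc25a1, Clybl, Odc1, Pts, Spr, Nos1, Nos3, Nostrin, Chil3 and Egr2 were added after their values were seen. The same holds for the markers Lyz2, Cd14, Cd68, Fcgr1, Mertk, Csf1r, Spi1, Cd4, Pdgfrb, S100a8, S100a9 and Mki67. It also holds for the choice of Il6, Il1b, Ccl12 and Ccl22 for levels among the nearest profiles. A gene of the tetrahydrobiopterin list that this rule would name is not reported here. Alternatives were a pseudocount of 0.1, no filter or 5 FPKM, median-ratio and quantile scaling, the groups compared alone, limma without a trend, another threshold, a replicate block and leaving out each library. Scaling to equal FPKM sums was added after the data were seen.

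Depth was estimated, since FPKM holds no counts: in genes with 1 transcript, 66.2% to 76.5% of low values per library lay within 0.05 of a whole number of fragments. The median coefficient of variation between replicates was 3.13% to 5.19% over the 5416 genes whose mean reached 10 FPKM. Groups share replicate numbers. Over 3646 genes at 10 FPKM or more in every library, same-numbered deviations from the group means correlated at 0.33 to 0.46 between untreated genotypes and 0.43 to 0.68 between treatments in Pim1-/- cells. These were over 0.1 in every pair, but between 0.01 and 0.28 and between 0.08 and 0.34 over the 5416 genes. Between genotypes after LPS and between treatments in WT cells some pairs were lower than 0.1 in either set. What the numbers mark is not given in the sources used here. Promoter windows and gene positions came from RefSeq (GRCm38.p6) and GENCODE M21. Python 3.11.15 did the remaining work, with numpy 2.4.6 and pandas 2.3.3 for tables and matplotlib 3.10.9 for figures, and the test was tested on simulated data.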

Additional observations from a re-analysis of the deposited data

How the results depend on the processing

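Of the 619 log2 fold changes of the 6 tested genes recomputed under the alternatives, 611 kept their direction and their side of the thresholds. Those of Ass1 between genotypes reversed where 1 library was left out. Without treatment they were −0.084 without the first WT library and −0.03 without the second Pim1-/- library (range −0.084 to 0.34 over the libraries left out). After LPS the value was 0.11 without the first WT library (range −0.39 to 0.11). The difference in LPS response of Irg1 reversed to 0.13 with a pseudocount of 0.1. At a pseudocount of 0.1 Irg1 was called lower in untreated Pim1-/- cells, Arg2 was called after LPS in WT cells (2.44) and for the difference in response (1.29), and with quantile normalization Arg2 was called in WT cells (1.19). The cause of each was not tested.

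Of the 6 genes, the number called between untreated genotypes went from 0 to 1 with a pseudocount of 0.1 and 1 with no fold threshold. After LPS it went from 0 to 5 with no fold threshold, and for the difference in response from 0 to 1 with a pseudocount of 0.1 and 5 with no fold threshold. Leaving out any 1 library left the counts of called genes at 0, 0, 5, 6 and 0 in the 5 comparisons. The counts with no fold threshold were not recomputed in this way.

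Of the 47 genes of the 5 lists, 3 were called between untreated genotypes, against 5 with a pseudocount of 0.1, 7 with quantile normalization, 5 with equal FPKM sums and 35 with no fold threshold. After LPS 3 were called, against 5 with equal sums and 39 with no fold threshold. After LPS in WT cells 10 were called, against 16 with quantile normalization, 19 with equal sums and 45 with no fold threshold. In Pim1-/- cells 5 were called, against 8 with a pseudocount of 0.1, 13 with equal sums and 29 with no fold threshold. For the difference in response 1 was called, against 2 with no filter and 28 with no fold threshold.

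With the replicate block, the counts of called genes were those of the fit without it in all 5 comparisons, 0, 0, 5, 6 and 0 of the 6 genes and 3, 3, 10, 5 and 1 of the 47. With 5 FPKM as the minimum, Arg2 could not be tested. Depth limits Arg1, and Nos2 and Arg2 without treatment, to a few fragments per library.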
